A study of Homo sapiens with 6 samples.

Results

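The pyruvate dehydrogenase genes described here are 10 of the 60569 gene symbols in the table: the complex subunits PDHA1, PDHB, DLAT and PDHX, the kinases PDK1, PDK2, PDK3 and PDK4, and the phosphatases PDP1 and PDP2. They were taken by gene symbol. The set was chosen on the known fall of PDK1 in the same comparison that is described below, so the values of all 10 genes are a description and their calls support nothing. The 6 RNA libraries were made from MDA-MB-453, an established human line derived from breast cancer. Of these, 3 (control vector) came from cells transfected with a control vector and 3 (ZNF207 overexpression) from cells that received a construct for the zinc finger protein ZNF207, and the study describes the 3 libraries of a group as independent biological replicates. The sources used here do not give the promoter of the construct, the time after transfection or whether cells were selected, and all libraries come from 1 line.

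The pyruvate dehydrogenase complex sits in the mitochondrial matrix and turns pyruvate, the end product of glycolysis, into acetyl-CoA for the citric acid cycle. PDHA1 and PDHB are the alpha and beta chains of its decarboxylase, DLAT is the acetyltransferase core, and PDHX anchors the shared lipoamide dehydrogenase DLD to that core. The PDK kinases phosphorylate PDHA1 and switch the complex off, and the PDP phosphatases remove the phosphate and switch it on. PDK1 and PDK3 are known to be induced in hypoxia through the transcription factor HIF-1, while PDK4 is known for its induction by fasting, glucocorticoids and PPAR factors.

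ZNF207 stood at 69.2, 67.0 and 63.7 FPKM in controls and 885, 786 and 750 FPKM in overexpression libraries, which fits the labels. FPKM is the number of sequenced fragments scaled to transcript length and to the mapped fragments of the library, so levels of different genes can be set side by side. FPKM summed to 589360 to 612711 per library, and read depth is unknown. Of 10 markers of luminal apocrine breast cancer, 9 reached the expression minimum and 0 were called, while TFAP2B stayed between 0.113 and 0.254 FPKM. Fibroblast markers summed to 9.47 to 11.7 FPKM in controls and 8.23 to 10.5 FPKM in overexpression libraries, nearly all of it from COL1A1, and leukocyte and endothelial markers to at most 1.65 and 0.577 FPKM. Fewer cells that express a gene and less of its RNA per cell cannot be told apart in such bulk libraries.

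PDK1 and PDK3 were the kinases with lower transcript levels in ZNF207 overexpression libraries, while PDK2, the phosphatases and the subunits PDHB, DLAT and PDHX had overlapping groups. PDK1 fell by 35.9% in its mean FPKM and PDK3 had a mean 28.0% lower. Changes are given as log2 differences of FPKM + 1, overexpression minus control, from a linear model (limma) over 13185 genes that reached 1 FPKM in 3 or more libraries, and a gene is called where the Benjamini-Hochberg adjusted p over all these genes is under 0.05. Of the 10 genes, 9 reached that minimum and PDK4 did not. PDK1 was called lower and none of the other 8 was called, against 0.212% of all tested genes called in either direction (0.159% lower and 0.0531% higher). Groups did not overlap and were lower in overexpression libraries for 3 of the 9, PDK1, PDK3 and PDHA1, against 10.4% of all tested genes. The reverse held for 0 of the 9, against 7.61%. The contrast was known when the genes were chosen, so nothing is read from these counts.

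**Figure D1:**
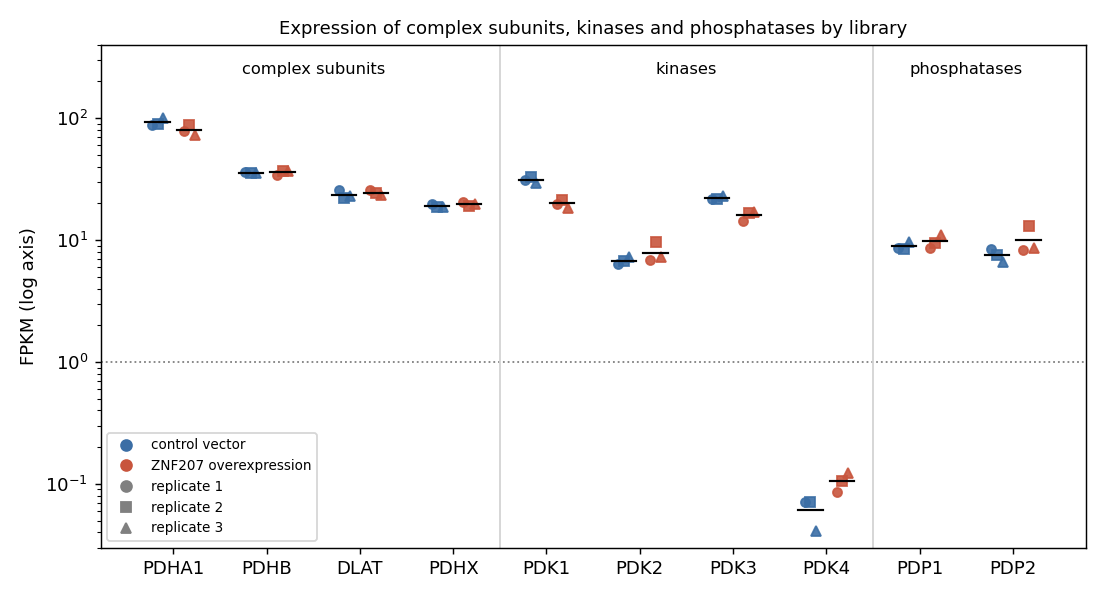
FPKM on a log axis for the 10 genes, with each point 1 library (blue, control vector; red, ZNF207 overexpression; marker shape, replicate) and each black line a group mean. The dotted line marks the expression minimum of 1 FPKM, below which PDK4 lies in all 6 libraries. The points of PDK1, PDK3 and PDHA1 (lower in overexpression libraries) and of PDK4 (higher, at trace level) do not overlap between groups.

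PDK1 (ENSG00000152256.13, chromosome 2, 172555373 to 172608669, plus strand, GRCh38) was at 31.2, 32.7 and 29.3 FPKM in the controls and 19.9, 21.4 and 18.5 FPKM in the overexpression libraries. Every control lay above every overexpression library, and the gap between the groups was wider than the range within either. The means were 31.1 ± 1.74 and 19.9 ± 1.48 FPKM (SD, n = 3 each), with a log2 change of -0.62 (SE 0.08), and PDK1 ranked 10 by p among the tested genes. PDK1 was no longer called without control replicate 2 (log2 change -0.58), without overexpression replicate 1 (-0.62) or without overexpression replicate 3 (-0.57). It was also not called without the expression minimum or without a trend of the variance with level.

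PDK3 (ENSG00000067992.13, X chromosome, 24465221 to 24541862, plus strand) stood at 21.7, 21.7 and 23.0 FPKM in the controls. In overexpression libraries it stood at 14.2, 16.7 and 16.96 FPKM, each below the lowest control. Its log2 change was -0.45 (SE 0.08) and it was not called, although it was when the minimum was set at an FPKM of 5. Over the left-out libraries the log2 change ran from -0.50 to -0.38.

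PDK2 (ENSG00000005882.11, chromosome 17, 50094737 to 50112152, plus strand), a kinase found in most tissues, was at 6.35, 6.67 and 7.30 FPKM in the controls and 6.84, 9.63 and 7.20 FPKM in the overexpression libraries. The groups overlapped, and overexpression replicate 2 stood above the other 5 libraries. The log2 change was 0.18 (SE 0.13), and 0.05 without overexpression replicate 2. PDK4 (ENSG00000004799.7, chromosome 7, 95583499 to 95596491, minus strand) was at trace level, with 0.0706, 0.0714 and 0.0408 FPKM in the controls and 0.0865, 0.106 and 0.123 FPKM in the overexpression libraries. Its groups did not overlap and were higher in overexpression libraries, at values too near 0 to read. PDK4 was not tested, and no ratio is given at that level.

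Short stretches of the promoters of PDK1, PDK3 and PDK2 are shown because hypoxia factors bind the core letters ACGTG or GCGTG, and PDK1 and PDK3 were the kinases with lower levels. Each is 30 bases, 5′ to 3′ on the plus strand of the gene, from the RefSeq windows on GRCh38.p14, and capitals mark ACGTG or its reverse complement CACGT.
PDK1, chr2:172556060-172556089: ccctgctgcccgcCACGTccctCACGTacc
PDK3, chrX:24465213-24465242: cgcgcgccgcgtACGTGcagcaaccgactc
PDK2, chr17:50095211-50095240: ccgggggaagcCACGTGccggggcggaagg
The PDK1 stretch holds 2 copies, which begin 17 and 8 bases before that start site. Another listed PDK1 start, upstream of this one, lies 0 bases from a main coding start, against 39 for this one. The window of 250 bases before that upstream start holds 0 copies of either motif. The PDK3 and PDK2 stretches are from the window nearest to a main coding start, so the PDK1 stretch was not chosen alike. FPKM per gene does not separate transcripts from the PDK1 starts. In PDK2 the capitals are a single palindrome read on both strands, which is also the E-box bound by MYC. Windows with the letters were common: 8 of 13 windows, belonging to 8 of the 9 genes searched, held ACGTG or GCGTG on either strand. Over all 35116 RefSeq windows of that length, 43.2% held at least 1 copy, and 7.52% held at least 2 copies of ACGTG. In the 7.52% a single palindrome counts as 2 copies, whereas the 2 copies of PDK1 are separate. PDHB, whose level was nearly equal in both groups, matched at 6 positions in its window, of which 2 are the strands of a single palindrome. A match of letters is a description and no binding was measured.

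**Figure D2:**
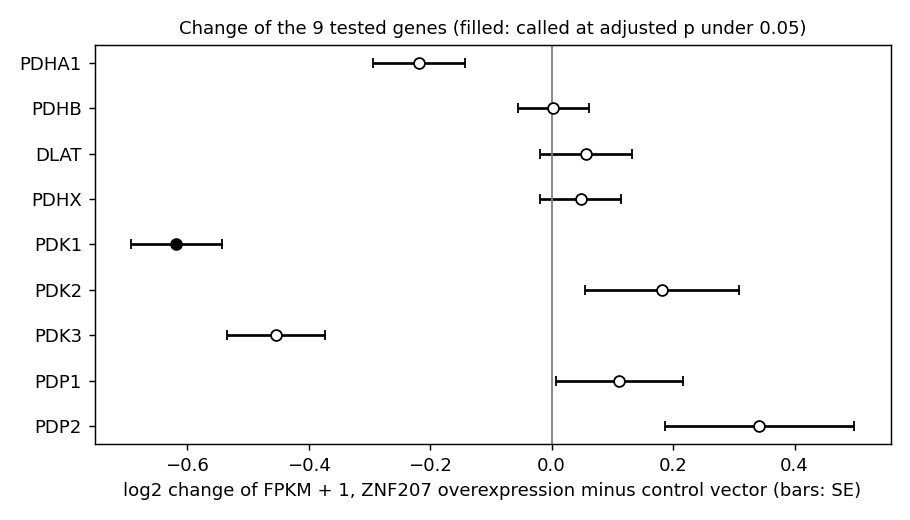
Log2 change of FPKM + 1 (overexpression minus control) for the 9 tested genes, with bars of 1 SE and a filled point for the called gene. PDK1 at -0.62, PDK3 at -0.45 and PDHA1 at -0.22 lie left of 0, and the largest estimate on the right is PDP2 at 0.34.

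The phosphatase PDP2 (ENSG00000172840.6, chromosome 16, 66878589 to 66895754, plus strand) was at 8.46, 7.47 and 6.62 FPKM in the controls and 8.25, 12.9 and 8.67 FPKM in the overexpression libraries. Overexpression replicate 2 was again the highest, and replicate 1 lay within the range of the controls. The log2 change was 0.34 (SE 0.16), and 0.16 without overexpression replicate 2. PDP1 (ENSG00000164951.15), the calcium-stimulated phosphatase, was at 8.64, 8.42 and 9.66 FPKM in the controls and 8.66, 9.45 and 11.1 FPKM in the overexpression libraries. The groups overlapped (log2 change 0.11, SE 0.10). PDP2 had the largest spread of the 9 tested genes, with a coefficient of variation of 12.2% in controls and 26.0% in overexpression libraries.

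Among the subunits, PDHA1 (ENSG00000131828.13, X chromosome, 19343893 to 19361705, plus strand), which carries the serines that PDK enzymes phosphorylate, stood at 88.0, 89.4 and 100.1 FPKM in the controls. In overexpression libraries it stood at 78.0, 87.1 and 73.3 FPKM, all below the lowest control, though replicate 2 was close to it. The log2 change was -0.22 (SE 0.08), and PDHA1 was not called. Its partner chain PDHB (ENSG00000168291.12, chromosome 3, 58427630 to 58433857, minus strand) was nearly constant, at 35.9, 35.6 and 35.6 FPKM in the controls and 34.0, 36.9 and 36.5 FPKM in the overexpression libraries (log2 change 0.00, SE 0.06). The 2 chains assemble in equal number. The ratio of PDHA1 to PDHB transcripts was 2.45, 2.51 and 2.81 in controls and 2.30, 2.36 and 2.01 in overexpression libraries, without overlap. With PDHB nearly constant, this ratio mostly restates PDHA1, and it was not tested.

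The core genes differed little between the groups. DLAT (chromosome 11) was at 25.8, 21.9 and 22.9 FPKM in the controls and 25.7, 24.1 and 23.6 FPKM in the overexpression libraries (log2 change 0.06, SE 0.08). PDHX (ENSG00000110435.11, chromosome 11, 34915829 to 35020591, plus strand) was at 19.8, 18.8 and 18.7 FPKM in the controls and 20.6, 19.1 and 19.6 FPKM in the overexpression libraries (log2 change 0.05, SE 0.07). Groups overlapped for both genes, and the DLAT to PDHX ratio was 1.23 ± 0.0688 in controls and 1.24 ± 0.0300 in overexpression libraries (SD, n = 3 each). PDHX shares up to 259 exon bases with APIP, a gene on the other strand at a mean of 15.1 FPKM, so its value is uncertain by the reads of that stretch.

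In control libraries the order of levels was PDHA1, PDHB, PDK1, DLAT, PDK3, PDHX, PDP1, PDP2, PDK2 and PDK4. The ranges of DLAT and PDK3 overlapped there, as did those of PDP1 with PDP2 and of PDP2 with PDK2, while the other neighbours were apart. In overexpression libraries PDK1 came after DLAT, and PDK3 after PDHX. PDK1 and PDHX overlapped in that order (18.5 to 21.4 and 19.1 to 20.6 FPKM), as did PDP2, PDP1 and PDK2 in turn. The kinase PDK1 thus lay between PDHB and DLAT in controls and beside PDHX in overexpression libraries.

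The kinase transcripts together came to 59.4, 61.2 and 59.7 FPKM in the controls and 41.1, 47.8 and 42.7 FPKM in the overexpression libraries. PDK1 made up 52.6%, 53.5% and 49.1% of that sum in the controls and 48.5%, 44.8% and 43.2% in the overexpression libraries. The share of PDK2 was 11.3% ± 0.836 in controls and 17.9% ± 1.96 in overexpression libraries (SD, n = 3 each), without overlap. PDK3 had overlapping shares of 36.9% ± 1.58 and 36.4% ± 2.84. The mixture thus held less PDK1 and more PDK2 relative to the sum, at PDK2 levels whose groups overlapped.

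Set against the phosphatases, the summed kinase level was 3.47, 3.85 and 3.67 times the summed phosphatase level in the controls and 2.43, 2.14 and 2.16 times in the overexpression libraries. The log2 ratio was 1.87 ± 0.0752 and 1.16 ± 0.102 (SD, n = 3 each), a difference of -0.71 that ran from -0.77 to -0.67 when libraries were left out in turn. The phosphatase sum itself had overlapping groups, at 17.1, 15.9 and 16.3 FPKM in controls and 16.9, 22.4 and 19.8 FPKM in overexpression libraries. Relative to PDHA1, the kinase sum was 67.4%, 68.5% and 59.6% in controls and 52.7%, 54.9% and 58.3% in overexpression libraries. These groups lay close together, with control replicate 3 just above overexpression replicate 3. The ratios rest on the same values as the single genes and were not tested, and transcript ratios say nothing of enzyme activity or phosphorylation.

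**Figure D3:**
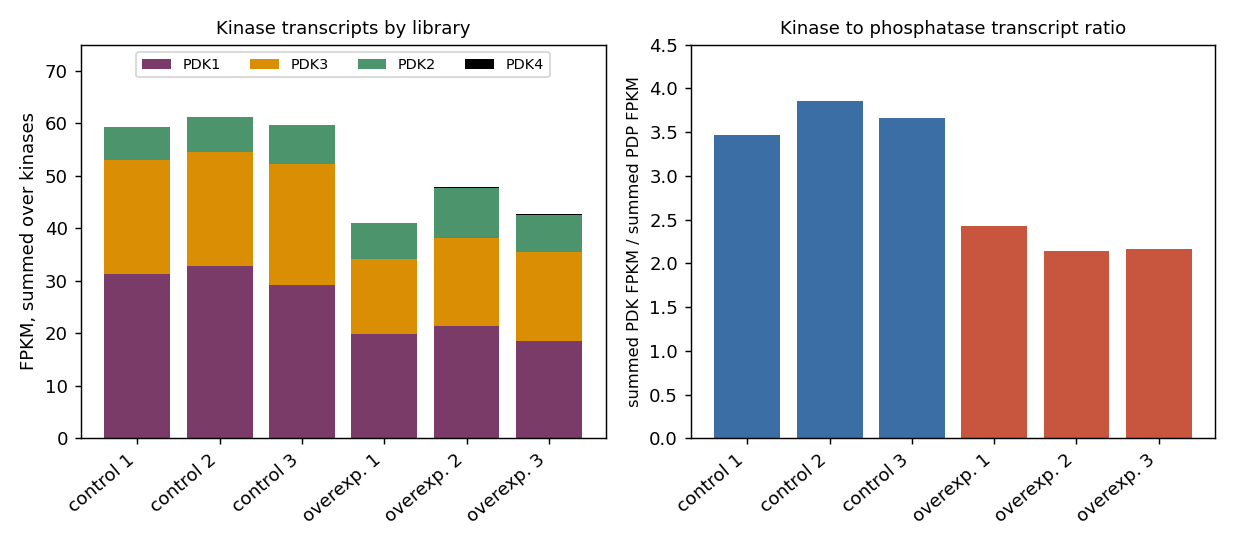
Left, stacked FPKM of PDK1, PDK3, PDK2 and PDK4 in each library; right, summed kinase FPKM divided by summed phosphatase FPKM in each library (blue, control vector; red, ZNF207 overexpression). The kinase sum is 59.4 to 61.2 FPKM in controls and 41.1 to 47.8 FPKM in overexpression libraries, and the ratio is 3.47 to 3.85 against 2.14 to 2.43.

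The genes around the complex were read from lists by function, each beside all 13185 tested genes, of which 7 rose and 21 fell with a median log2 change of -0.01. The split was 8 higher and 12 lower with quantile scaling and 6 higher and 11 lower with median-of-ratios scaling. At an unadjusted p under 0.05, 5.08% of the tested genes were higher (670 genes) and 7.03% lower (927 genes), and the counts of each list at that threshold are set beside these shares. Of the partner genes DLD, PDPR, MPC1 and MPC2, none was called by limma. At that threshold 1 of the 4 was higher and 0 lower, with all 4 estimates above 0 (median 0.11). MPC2, a subunit of the carrier that brings pyruvate into mitochondria, averaged 25.2 ± 1.67 FPKM in controls against 28.4 ± 1.32 FPKM in the other group (SD, n = 3 each, limma adjusted p = 0.384), and its partner MPC1 at 24.99 ± 1.73 and 27.4 ± 1.69 FPKM (adjusted p = 0.536). DLD, named outside the naming rule as the missing enzyme of the complex, stood at 174 ± 8.84 and 187 ± 11.3 FPKM. The testis form PDHA2 was listed at 0 in all 6 libraries.

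Among 14 tested neighbours of pyruvate and acetyl-CoA, which are enzymes and transporters, 1 was called lower and 0 higher (median -0.06). The unadjusted threshold of 0.05 was met by 4 of the 14 with lower and 3 with higher levels, against 7.03% and 5.08% of all tested genes. The called gene was LDHA, the lactate dehydrogenase subunit that takes pyruvate to lactate. LDHA was at 1115, 1188 and 1136 FPKM in the controls and 863, 887 and 783 FPKM in the overexpression libraries (log2 change -0.44, SE 0.06, limma adjusted p = 0.0331). The groups were far apart relative to their ranges. None of the 14 was called when control replicate 2 or 3 or any overexpression replicate was left out, nor with TPM, median-of-ratios or quantile scaling. LDHB, the other main subunit, was listed at or near 0 in all 6 libraries (at most 0.0503 FPKM) and is named outside the rule.

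The citric acid cycle that the complex feeds had 17 tested genes, of which none was called by limma and the median log2 change was 0.01. At an unadjusted p under 0.05, 2 of the 17 were higher and 0 lower, against 5.08% and 7.03% of all tested genes. OGDH, the decarboxylase of the oxoglutarate complex, stood at 24.0, 22.5 and 22.8 FPKM in controls and 28.7, 28.3 and 28.9 FPKM in overexpression libraries (log2 change 0.30, SE 0.06, adjusted p = 0.0883). IDH3A, an isocitrate dehydrogenase subunit, stood at 19.2 ± 0.306 and 21.6 ± 1.04 FPKM (SD, n = 3 each, limma adjusted p = 0.365). The 16 tested genes that supply the lipoate and thiamine cofactors likewise had none called by limma (median -0.02). With 1 of the 16 higher and 0 lower at the unadjusted threshold, the list was near the shares of all tested genes. LIPT1, a lipoyltransferase, stood at 6.10 ± 1.15 and 7.76 ± 0.868 FPKM (limma adjusted p = 0.398).

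**Figure D4:**
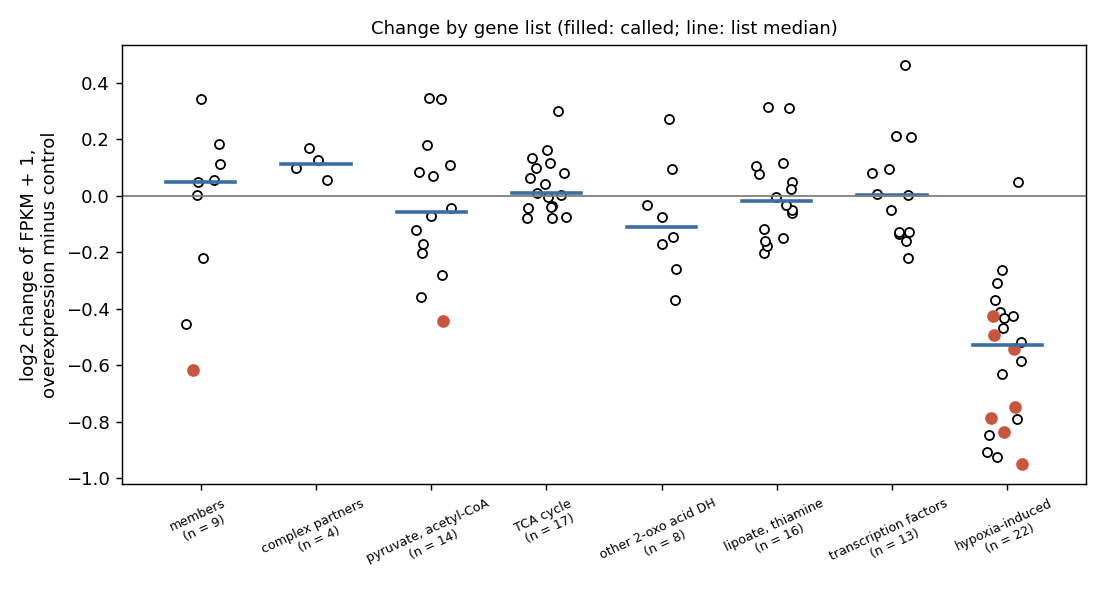
Log2 change of FPKM + 1 (overexpression minus control) of every tested gene in each list, with filled red points for called genes and a blue line at the list median. The hypoxia-induced list lies below 0 with a median of -0.53, while the medians of the other lists lie between -0.11 and 0.11, and PDK1 and PDK3 are the lowest points of the pyruvate dehydrogenase genes.

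PDK1 is commonly counted among hypoxia-induced genes, and its values were set beside a list of 23 other such genes, of which 22 were tested. Of these 0 rose, 7 fell and 15 were not called, with a median log2 change of -0.53, and this list was chosen with its fall already known. Groups did not overlap and were lower for 21 of the 22, against 10.4% of all tested genes. The unadjusted threshold of 0.05 was met by 21 of the 22 with lower and 0 with higher levels, against 7.03% and 5.08%. The 7 were ALDOC, ENO2 and PGK1 of glycolysis, the collagen enzymes P4HA1 and LOX, the mitophagy receptor BNIP3L and NDRG1, with log2 changes from -0.95 for LOX to -0.42 for BNIP3L. The log2 change of PDK1 was exceeded in size by 9 of the 22 and that of PDK3 by 14. With control replicate 2 left out 3 fell, with overexpression replicate 1 left out 3, and with overexpression replicate 3 left out 2.

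Of 13 tested transcription factors known to act on PDK genes none was called by limma and the median was 0.00. At an unadjusted p under 0.05, 1 of the 13 was higher and 1 lower, near the 5.08% and 7.03% of all tested genes. HIF1A, which encodes the oxygen-regulated subunit of HIF-1, stood at 55.5, 49.0 and 61.0 FPKM in controls and 75.01, 71.1 and 82.9 FPKM in overexpression libraries. All 3 overexpression libraries were above the controls, opposite in direction to PDK1, and HIF1A was not called (log2 change 0.46, SE 0.09, adjusted p = 0.0751). HIF1A is controlled largely through protein stability, which was not measured. The glucocorticoid receptor gene NR3C1 stood at 33.0 ± 1.42 and 29.4 ± 0.234 FPKM (SD, n = 3 each, limma adjusted p = 0.321).

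Genes with a pattern like that of PDK1 were ranked by Pearson's r of log2(FPKM + 1) over the 6 libraries, among the 9788 tested genes whose mean reached 5 FPKM. The 3 nearest were P4HA1, a collagen prolyl hydroxylase subunit (r = 0.997), the glycolytic enolase ENO1 (0.995) and the splicing factor SRSF7 (0.993). P4HA1 stood at 165, 172 and 163 FPKM in controls and 119, 124 and 112 FPKM in overexpression libraries, so that replicate 2 was the highest and replicate 3 the lowest of each group, as for PDK1. All 6 points share the step between the groups, which alone gives a high r, and 128 genes had an r above 0.95. PDK3 had an r of 0.897 with PDK1, rank 343, and PDHA1 0.784.

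With the group means removed, the r with PDK1 was -0.26 for PDK3 and 0.957 for P4HA1. P4HA1 was picked for its r over the same 6 libraries, which favours a high r here too. PDK3 was not picked by r, so nothing is read from the contrast between them. Ranked with the group means removed, the nearest genes were ZNF260, TRIOBP, DVL3, MRPS11 and RPL36AL (r from 0.991 to 0.994). None of these 5 was called. These are descriptions over 6 points that share libraries and group means.

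**Figure D5:**
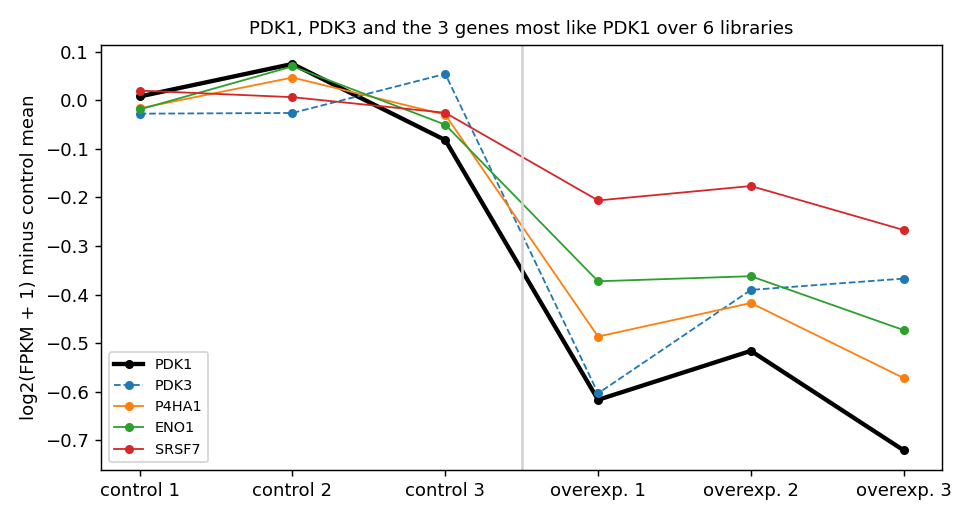
Log2(FPKM + 1) minus the control mean for PDK1 (thick black), PDK3 (dashed) and the 3 genes with the highest r with PDK1, by library. Lines join the values of 1 gene, and libraries stand in order of replicate number, which was not taken to pair them. PDK3 is highest in control replicate 3 and lowest in overexpression replicate 1, and PDK1 is highest in control replicate 2 and lowest in overexpression replicate 3.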

How the data were processed

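The authors deposited 1 table of FPKM values with 60658 rows for 60569 symbols and 1 column per library. The build hg38 and the tools RSEM 1.3.1, Bowtie2 and DESeq2 1.4.5 are named per the submitters' processing notes, which give no roles; annotation and strand handling were not given in the sources used here. Columns were matched to the groups by their short names (NC read as control), and their digit to the replicate, by name only.

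For a symbol with several rows the row of highest mean was kept. Values were analysed as log2(FPKM + 1) in limma 3.58.1 (R 4.3.3; mean-variance trend, two-sided, Benjamini-Hochberg adjustment over 13185 genes reaching 1 FPKM in 3 or more libraries, threshold 0.05). The fit was run on simulated data, where recovery was required only for added changes far larger than those of PDK1 and PDK3. That run therefore says nothing of calls at their size. FPKM are not counts: among 168 low genes at most 4.76% shared a ratio between 2 libraries, so no whole reads were recovered and no intervals for depth are given. No 2 libraries had more than 8 tested genes of identical value.

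Members and lists were chosen with earlier results of these data known. Named genes were ZNF207, the 10 members, called list genes (or up to 2 with the smallest p) and the genes nearest to PDK1 in each ranking (5, of which 3 are given for the first); the other genes that this rule names are not reported here. Coordinates are from GENCODE 29; those of DLAT, which reaches beyond its listed locus, and of PDP1 are not printed. BLAST 2.17.0 of the longest coding transcripts found at most 304 bases at 90% identity or more with a gene that does not overlap.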

Additional observations from a re-analysis of the deposited data

How the results depend on the processing

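Over 17 alternatives the estimate of PDK1 stayed below 0 (-0.67 to -0.57), as did those of PDK3 (-0.50 to -0.38) and PDHA1 (-0.29 to -0.16). The filter, variance trend, robust fit, replicate block and summed rows do not alter these estimates. Groups without overlap cannot change sign when a library is left out, so these runs say nothing of the direction. PDK1 was not called without a filter or without a variance trend (log2 change -0.62 in both). Left-out libraries gave -0.67 to -0.57. The number of the 9 genes called was 0 without a filter, 0 without a variance trend, 2 with the filter at an FPKM of 5, 2 with the replicate block and 0 to 1 with libraries left out. PDK3 was the second gene at the filter of 5 and with the block. Estimates of PDK2, PDP1, PDP2, DLAT and PDHX stayed above 0, and that of PDHB changed sign without overexpression replicate 2 (-0.020) or 3 (-0.011), with -0.020 to 0.039 over the left-out libraries. The cause of these moves was not tested, except that a left-out library leaves fewer samples and a filter alters how many genes are tested.

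All genes called numbered 28, and 4 without a filter, 64 with the filter at 5, 18 after rescaling to TPM, 17 with median-of-ratios scaling, 5 without a variance trend, 145 with the replicate block and 4 to 36 with libraries left out. Hypoxia-induced genes called numbered 7, and 0 without a filter, 12 with the filter at 5, 1 without a variance trend, 20 with the block and 2 to 7 with libraries left out. Pyruvate and acetyl-CoA genes called numbered 1, and 0 without a filter, with TPM, median-of-ratios or quantile scaling and without a variance trend, 2 with the block and 0 to 1 with libraries left out. The list with the other 2-oxo acid dehydrogenase genes and the transcription factor list had 0 called, and 1 each with the filter at 5 and with the block. The former had 0 to 1 called when libraries were left out. The kinase ratios and the PDK1 share kept their direction under all 8 alternatives run. Their groups did not overlap, so leaving out a library could not reverse it, and summing rows left the values unchanged. Of the 8, only quantile scaling could have changed the direction.

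The replicate numbers were not taken to pair the libraries, and the replicate block was run only as an alternative. Deviations of same-numbered libraries from their group means correlated at 0.14, 0.01 and 0.17 across genes, against -0.21 to 0.07 for libraries of other numbers. Deviations within a group cancel, so these correlations are tied to one another and do not decide the pairing. As a hint from the data, 4 of 6 libraries correlated best with their own number.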

Other observations

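The branched-chain 2-oxo acid dehydrogenase complex is controlled like pyruvate dehydrogenase, by a kinase, BCKDK, that switches it off and a phosphatase, PPM1K, that switches it on. BCKDK stood at 60.3, 71.7 and 68.5 FPKM in controls and 51.0, 53.0 and 50.1 FPKM in overexpression libraries, all of the latter below the controls (log2 change -0.37, SE 0.07, limma adjusted p = 0.0794). PPM1K stood at 11.1, 10.7 and 12.3 FPKM in controls and 12.97, 15.0 and 13.9 FPKM in overexpression libraries, all above the controls (log2 change 0.27, SE 0.09, adjusted p = 0.247). Neither was called. Their ratio was 5.41, 6.71 and 5.55 in controls and 3.93, 3.54 and 3.60 in overexpression libraries, and it was not tested. BCKDK and PPM1K were named for the smallest p of their list, so the separation of their ratio follows from that choice. The list with the other 2-oxo acid dehydrogenase complexes, 8 tested genes, had none called by limma and a median log2 change of -0.11. It also holds BCKDK, PPM1K and GCSH, a gene of the glycine cleavage system. At an unadjusted p under 0.05, 1 of the 8 was higher and 2 lower, against 5.08% and 7.03% of all tested genes.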
